A study of Arabidopsis thaliana with 12 samples.

Results

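The floral organ MADS-box genes are a group of 10 Arabidopsis thaliana transcription factor genes that give the whorls of a flower their identity. They were chosen by name and locus: SEP1 (AT5G15800), SEP2 (AT3G02310), SEP3 (AT1G24260), SEP4 (AT2G03710), AG (AT4G18960), AP1 (AT1G69120), AP3 (AT3G54340), PI (AT5G20240), SHP1 (AT3G58780) and CAL (AT1G26310). All 10 are among the 29420 loci of the count table, and 8 of them are among the 22076 genes that passed the filter on low counts. SEP2 and AP3 had too few reads to pass it. RNA had been sequenced from whole seedlings aged 14 days, grown on half-strength MS medium at 22 degrees with 16 h of light and 8 h of dark. The 4 genotypes were wild type (WT), brm-1 (a BRM allele), ref6-1 (a REF6 allele) and brm-1 ref6-1, which carries both alleles and is called the combined mutant here, with 3 libraries each. The labels name no transgene or treatment, and all plants share the same age and growth conditions.

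In a flower, MADS-box proteins act in combinations bound to DNA motifs called CArG boxes. AP1 and CAL specify the floral meristem and the outer whorl, AP3 and PI the petals and stamens, AG the stamens and carpels, and SHP1 the margins of the fruit valves. The SEPALLATA proteins SEP1 to SEP4 bridge the others into complexes and are needed in every whorl. In leaves and seedlings these genes are kept low by Polycomb proteins, which methylate lysine 27 of histone H3. REF6 encodes a demethylase that removes this methylation, and BRM is the motor subunit of a SWI/SNF complex, which moves nucleosomes with the energy of ATP. The genotypes ask how these floral genes depend on each regulator and on both.

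The windows of 250 bases upstream of the annotated gene start (RefSeq annotation of TAIR10.1) are shown for the members whose levels separated the genotypes most clearly, SEP3, SEP4, PI and AG, and for CAL, the member that fell in brm-1. Capitals mark GAGAGA or its complement TCTCTC, a repeat bound by plant GAGA factors, and overlapping matches run together. The windows lie at chr1:8596124-8596373, minus strand, at chr2:1128979-1129228, plus strand, at chr5:6828654-6828903, plus strand, at chr4:10382606-10382855, plus strand, and at chr1:9103645-9103894, minus strand. Each is written 5′ to 3′ on the strand of its gene.
SEP3: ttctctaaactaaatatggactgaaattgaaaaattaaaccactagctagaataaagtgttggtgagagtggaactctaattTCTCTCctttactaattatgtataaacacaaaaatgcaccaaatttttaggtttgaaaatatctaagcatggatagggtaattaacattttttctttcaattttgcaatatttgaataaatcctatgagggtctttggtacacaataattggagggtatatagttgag
SEP4: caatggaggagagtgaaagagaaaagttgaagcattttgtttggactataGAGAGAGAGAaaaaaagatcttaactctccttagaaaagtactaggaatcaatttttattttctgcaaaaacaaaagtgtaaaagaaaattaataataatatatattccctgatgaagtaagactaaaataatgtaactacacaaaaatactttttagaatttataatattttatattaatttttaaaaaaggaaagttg
PI: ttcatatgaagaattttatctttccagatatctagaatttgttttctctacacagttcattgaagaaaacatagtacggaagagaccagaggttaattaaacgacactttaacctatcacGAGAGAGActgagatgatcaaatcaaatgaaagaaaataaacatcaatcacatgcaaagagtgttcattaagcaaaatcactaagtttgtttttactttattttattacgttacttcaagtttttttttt
AG: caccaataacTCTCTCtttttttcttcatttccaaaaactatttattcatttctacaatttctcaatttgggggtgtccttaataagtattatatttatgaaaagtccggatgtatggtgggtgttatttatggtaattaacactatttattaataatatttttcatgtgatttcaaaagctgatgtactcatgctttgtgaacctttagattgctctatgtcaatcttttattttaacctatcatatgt
CAL: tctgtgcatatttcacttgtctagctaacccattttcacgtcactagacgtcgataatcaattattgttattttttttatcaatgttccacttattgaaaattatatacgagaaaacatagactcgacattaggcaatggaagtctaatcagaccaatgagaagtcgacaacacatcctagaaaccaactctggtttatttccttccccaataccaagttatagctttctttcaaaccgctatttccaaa

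The repeat stood in the windows of 6 of the 10 members (SEP2, SEP3, SEP4, AG, PI and SHP1), against 20.4% of 26709 protein-coding windows of the same length, with both strands searched. The windows of SEP1, AP1, AP3 and CAL held none. No window of the 10 held a CArG box (2.55% of all windows), the telomeric repeat AAACCCT (7.28%), or any of the words CTCTGCTC, CTCTGCTT, CTCTGTTC and CTCTGTTT that REF6 is known to recognise (5.7%). In 2000 bases centred on the gene start, SEP1, AP1, SHP1 and CAL each held 1 of the REF6 words, and 50.3% of genes held at least 1. A CArG box stood in that wider window of SEP2 and AP1, and in 13.0% of genes. In both windows only its strict form was sought, CC, then 6 bases of A or T, then GG, so looser forms were not counted. These matches are letters in a window and were not set against binding data.

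Library totals ran from 10119148 to 11860892 counts. The BRM transcript stood at 1.31 to 2.61% of the WT mean in the brm-1 libraries. It stood at 2.08, 1.25 and 14.7% in replicates 1, 2 and 3 of brm-1 ref6-1, so replicate 3 of the combined mutant stands apart. Calls of the combined mutant are followed by their values without that library. REF6 was counted 908 to 1116 times in WT and 932 to 1056 in brm-1, against 874 to 892 in ref6-1 and 800 to 863 when both alleles were present. Its log2 difference between ref6-1 and WT was -0.15 ± 0.05 (edgeR adjusted p = 0.06), so the amount of this transcript is no check of the ref6-1 labels. The labels give 3 libraries per genotype and also mention a pool of RNA from biological replicates. The p-values therefore cover the spread between these libraries, which may be technical. In whole seedlings, more cells that express a gene and more RNA per cell cannot be told apart.

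Markers of leaf and root were abundant and most markers of floral organs low. Green leaf markers (5 genes) summed to 492 to 541 CPM (read counts normalised for library size) in WT and root markers (5 genes) to 158 to 194 CPM. Of 10 stamen and pollen markers, 5 were at 0 in all WT libraries, 4 in brm-1, 5 in ref6-1, with 3 at 0 for the combined mutant, and the list summed to 2.53 to 5.2, 2.46 to 3.32, 2.78 to 3.74 and 1.93 to 3.53 CPM in that order. The tapetum regulator DYT1, the pollen gene VGD1, the ovule gene INO and the stamen boundary gene SUP were at 0 in every library. The carpel and ovule list of 4, which holds SHP2 and STK, summed to 1.1 to 3.41 CPM in WT, 3.56 to 4.73 in brm-1, 3.37 to 4.2 in ref6-1, and 4.37 to 8.28 with both alleles.

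Per kilobase of annotated exon, SEP4 and SEP3 were the most abundant members in WT, at 8.76 ± 1.1 and 6.26 ± 1.2 CPM per kilobase (SD, n = 3). PI (3.75 ± 0.367) and SHP1 (3.11 ± 0.645) followed, and then AG at 1.24 ± 0.364. SEP4 exceeded SEP3, SEP3 exceeded PI and SHP1 exceeded AG by more than the sum of their SDs, whereas PI and SHP1 differed by less. SEP1 (0.692 ± 0.447), CAL (0.672 ± 0.115), AP1 (0.495 ± 0.348), SEP2 (0.257 ± 0.13) and AP3 (0.222 ± 0.081) lay lowest, each within the summed SDs of its neighbour in that order, AG and SEP1 included. SEP3 stood at 36.7 ± 3.4 CPM per kilobase in brm-1 and 19.4 ± 0.959 in ref6-1, and SEP4 at 11.3 ± 1.83 and 19.9 ± 1.39. In brm-1 ref6-1 the order began with SEP3 at 49.4 ± 5.11 CPM per kilobase, then SEP4 at 22.1 ± 1.17 and PI at 10.5 ± 0.765.

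**Figure D1:**
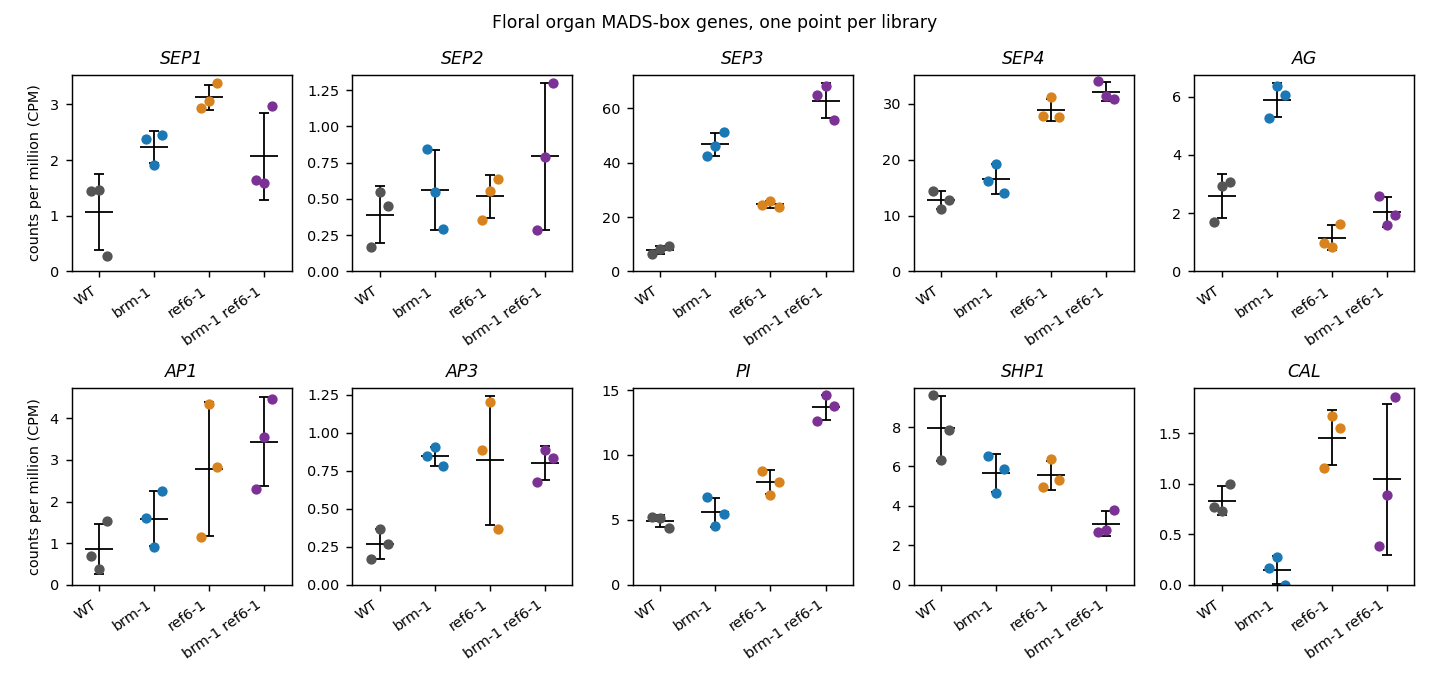
Level of each of the 10 genes in CPM (vertical axes, each from 0) in the 4 genotypes, with 1 point per library, a bar at the mean and whiskers of 1 SD (n = 3). SEP3 rises from 6.31 to 9.32 CPM in WT to 55.5 to 68 CPM in the combined mutant and SHP1 falls there, while AG has its highest mean in brm-1 and its lowest in ref6-1.

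The first comparisons ask how each mutation changes these genes against WT. In brm-1, 3 of the 8 tested members passed (edgeR quasi-likelihood test, adjusted p under 0.05), SEP3 and AG upward and CAL downward, against 19.0% of all 22076 genes tested (8.88% upward, 10.1% downward). In ref6-1, SEP1, SEP3, SEP4 and PI rose (4 of 8), against 7.95% of all genes (2.33% upward, 5.63% downward). In the combined mutant, SEP3, SEP4, AP1 and PI rose and SHP1 fell (5 of 8), against 31.2% of all genes (14.0% upward, 17.3% downward). The median log2 change of the 8 was 0.62, 0.99 and 1.14 in these comparisons, and that of all genes -0.0029, 0.0038 and 0.00035. All 3 comparisons share the WT libraries, and the counts describe only the members that passed the filter. Without WT replicate 2 or 3, 2 members passed in ref6-1.

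SEP3, the SEPALLATA gene active in the inner whorls, lies at chr1:8593536-8596123 (minus strand, 8 exons) in TAIR10.1 and showed the clearest response. It was counted 74, 90 and 103 times in the WT libraries, 503, 508 and 524 times in brm-1, 275, 281 and 259 times in ref6-1, and 672, 689 and 597 times in the combined mutant. The 4 genotypes did not overlap in CPM, and from low to high they ran WT, ref6-1, brm-1, combined mutant. SEP3 rose 5.87-fold in brm-1, with a log2 change of 2.55 and an SE of 0.12 (3 libraries against 3, edgeR adjusted p = 3.31e-07). It rose 3.11-fold in ref6-1 (1.64 ± 0.13, edgeR adjusted p = 2.73e-05) and 7.89-fold in the combined mutant (2.98 ± 0.12, edgeR adjusted p = 9.96e-08, and 3.06 without replicate 3 of that mutant). All 3 calls were kept in each of the 13 alternatives run.

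Each step of that order was tested directly. SEP3 was higher in brm-1 than in ref6-1 by 0.92 ± 0.10 on the log2 scale (edgeR adjusted p = 0.000127). It was higher in the combined mutant than in ref6-1 by 1.34 ± 0.10 (edgeR adjusted p = 1.73e-05) and than in brm-1 by 0.43 ± 0.10 (edgeR adjusted p = 0.0275). The last call was lost without brm-1 replicate 1 (edgeR adjusted p = 0.109) or 2 (0.0724) or without combined mutant replicate 1 (0.0999) or 2 (0.118), and ranged from 0.0105 to 0.118 over the alternatives. Without combined mutant replicate 3 the difference was 0.51 from brm-1 (edgeR adjusted p = 0.0144) and 1.42 from ref6-1.

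The single-mutant changes of SEP3 sum to 4.19 on the log2 scale, and the combined mutant reached 2.98. In mean CPM, SEP3 went from 7.96 in WT to 24.7 in ref6-1, and from 46.7 in brm-1 to 62.7 in the combined mutant. Only the log2 scale was tested. The interaction, which is the ref6-1 change in the brm-1 background minus that in the WT background, was -1.21 ± 0.17 (edgeR adjusted p = 0.0148, against 0.245% of all genes called, 0.186% upward and 0.0589% downward). It was not called with limma-voom (adjusted p = 0.056) or without ref6-1 replicate 2 (edgeR adjusted p = 0.0595), with 3.15e-07 to 0.0595 over the alternatives. SEP3 was the 1 member of 8 whose interaction passed, and its value was -1.13 without combined mutant replicate 3 (edgeR adjusted p = 0.0137).

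SEP4, another SEPALLATA gene, at chr2:1129229-1131838 (plus strand, 8 exons), followed the ref6-1 genotype. It was counted 168, 121 and 142 times in WT and 191, 212 and 143 times in brm-1, then 313, 337 and 303 times in ref6-1 and 354, 318 and 333 times in the combined mutant. Every library with ref6-1 was above every library without it, while WT and brm-1 overlapped. SEP4 rose 2.26-fold in ref6-1 (log2 change 1.18 ± 0.12, edgeR adjusted p = 8.72e-05) and 2.51-fold in the combined mutant (1.33 ± 0.12, edgeR adjusted p = 1.15e-05, and 1.36 without its replicate 3). In brm-1 it stood at 0.37 ± 0.12 and missed the threshold (edgeR adjusted p = 0.0515, passing without WT replicate 1 at 0.0391 or brm-1 replicate 3 at 0.0194, with 0.0194 to 0.215 over the alternatives).

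Between mutants, SEP4 was lower in brm-1 than in ref6-1, at -0.81 ± 0.11 (edgeR adjusted p = 0.00044), and higher in the combined mutant than in brm-1 by 0.96 ± 0.11 (edgeR adjusted p = 0.000662). Against ref6-1 the combined mutant differed by 0.15 ± 0.11 and did not pass (edgeR adjusted p = 0.401). The interaction of SEP4 was -0.22 ± 0.16 (edgeR adjusted p = 0.73). These values were 0.99, 0.18 and -0.19 without combined mutant replicate 3, with the first called as before.

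SEP1 and SEP2, a pair of closely related SEPALLATA genes, had few reads. They lie at chr5:5151334-5154253 (minus strand, 7 exons) and chr3:464279-467151 (minus strand, 7 exons). SEP1 was counted 17, 16 and 3 times in WT, 28, 21 and 25 in brm-1, 33, 33 and 37 in ref6-1, and 17, 16 and 32 in the combined mutant. In CPM, all libraries of each mutant were above all WT libraries, though replicate 3 of WT stood far below the other two. SEP1 rose in ref6-1 by 1.54 ± 0.42 (edgeR adjusted p = 0.0431), and stood at 1.06 ± 0.44 in brm-1 and 0.95 ± 0.44 in the combined mutant without passing (edgeR adjusted p = 0.112 and 0.123).

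The ref6-1 call of SEP1 rested on every library. It was lost without any one of the 6 libraries compared (edgeR adjusted p from 0.0536 to 0.102), with only the groups compared (0.0885) and with the replicate number as a block (0.0564), and without WT replicate 3 the log2 change was 1.10. The 3′ end of SEP1 overlaps AT5G15790 on the other strand, a gene at 27.7 ± 2.27 CPM in WT and 30.1 ± 2.58 CPM in ref6-1 (SD, n = 3). The noncoding RNA gene AT5G02455, also on the other strand, lies within SEP1 and is not among the counted loci. Strand use in the counting is not given, so reads of these genes may not be separable from those of SEP1. SEP2 was counted 2, 6 and 5 times in WT, 10, 6 and 3 in brm-1, 4, 6 and 7 in ref6-1, and 3, 8 and 14 in the combined mutant, and all genotypes overlapped. The longest identical stretch of the SEP1 and SEP2 transcripts was 32 bases, shorter than the 100-base reads.

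AG, which specifies stamens and carpels and ends floral meristem growth, lies at chr4:10382856-10388539 (plus strand, 10 exons). It rose in brm-1, while its values below WT in ref6-1 did not pass. It was counted 20, 32 and 34 times in WT and 62, 70 and 62 times in brm-1. It was counted 11, 9 and 18 times in ref6-1 and 27, 16 and 21 times in the combined mutant. All brm-1 libraries were above all others and all ref6-1 libraries below WT, while the combined mutant overlapped WT and ref6-1.

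AG rose 2.29-fold in brm-1 (log2 change 1.20 ± 0.28, edgeR adjusted p = 0.00944), a call kept in the 13 alternatives. In ref6-1 it stood at -1.15 ± 0.33 and missed the threshold (edgeR adjusted p = 0.054, passing without WT replicate 1 at 0.0365 or ref6-1 replicate 3 at 0.0316, with 0.0316 to 0.175 over the alternatives). Set directly against each other, AG was 5.07-fold higher in brm-1 than in ref6-1 (2.34 ± 0.31, edgeR adjusted p = 0.000293), and this held in the 13 alternatives.

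In brm-1 ref6-1, AG was lower than in brm-1, at -1.52 ± 0.29 (edgeR adjusted p = 0.0115), a call lost when replicate 2 of the combined mutant was left out (0.0568, with 0.00102 to 0.0568 over the alternatives) and kept without its replicate 3 (-1.49). It differed from WT by -0.32 ± 0.31 and from ref6-1 by 0.82 ± 0.34, and neither passed (edgeR adjusted p = 0.462 and 0.152). The interaction was -0.37 ± 0.45 (edgeR adjusted p = 0.861, and -0.34 without that replicate 3).

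SHP1, a close relative of AG that patterns the fruit, was the member that fell in the combined mutant. The gene lies at chr3:21738160-21742517 (plus strand, 10 exons). It was counted 113, 69 and 87 times in WT, 77, 51 and 60 in brm-1, 56, 69 and 58 in ref6-1, and 28, 28 and 41 in the combined mutant. The combined mutant lay below all other libraries, and both single mutants overlapped WT. Against WT, SHP1 of the combined mutant fell by 1.36 ± 0.22 in log2 terms (edgeR adjusted p = 0.000648), a call kept in the 13 alternatives (-1.54 without replicate 3 of the combined mutant). In the single mutants it stood at -0.49 ± 0.20 and -0.52 ± 0.20 and did not pass (edgeR adjusted p = 0.117 and 0.139).

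Against the single mutants, SHP1 was lower in the combined mutant, with a log2 difference of -0.87 ± 0.22 from brm-1 (edgeR adjusted p = 0.0474, with 0.0393 to 0.162 over the alternatives). From ref6-1 it differed by -0.84 ± 0.22 (edgeR adjusted p = 0.0288, with 0.0232 to 0.106). The first call was lost in 8 of 13 alternatives, which were limma-voom, no filter, only the groups compared, the replicate block, and without replicate 1 or 3 of brm-1 or replicate 1 or 2 of brm-1 ref6-1. The differences were -1.05 and -1.02 without combined mutant replicate 3 (edgeR adjusted p = 0.0393 and 0.0232). The second was lost with limma-voom and without ref6-1 replicate 2 or 3 or combined mutant replicate 1 or 2. The 3′ part of SHP1 overlaps GAUT15 on the other strand, which had 41.9 ± 4.57 CPM in WT and 38.2 ± 2.22 CPM in the combined mutant (SD, n = 3) and a log2 difference of -0.13 ± 0.09 (edgeR adjusted p = 0.277). The noncoding RNA gene AT3G09155, also on the other strand, lies within SHP1 and is not among the counted loci. As strand use is not given, reads of these genes may not be separable from those of SHP1.

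The paralog of SHP1 went the other way. SHP2 (AT2G42830), which acts with SHP1 in the fruit, was counted 33, 9 and 21 times in WT and 77, 66 and 43 times in the combined mutant, and rose by 1.68 ± 0.34 (edgeR adjusted p = 0.00277, and 1.90 without combined mutant replicate 3). All 3 libraries of the combined mutant had more counts than any WT library. The single mutants had 40 to 42 counts in brm-1 and 34 to 42 in ref6-1, and did not pass (edgeR adjusted p = 0.0643 and 0.144). The transcripts share no identical stretch longer than 34 bases.

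PI and AP3 encode partners that specify petals and stamens, and lie at chr5:6828904-6831515 (plus strand, 6 exons) and chr3:20119140-20121314 (minus strand, 7 exons). PI was counted 61, 56 and 48 times in WT, 80, 50 and 56 in brm-1, 99, 75 and 87 in ref6-1, and 131, 148 and 148 in the combined mutant. The combined mutant lay above all other libraries and ref6-1 above WT and brm-1, which overlapped each other. PI rose 2.79-fold in the combined mutant (1.48 ± 0.16, edgeR adjusted p = 4.63e-05, and 1.47 without its replicate 3) and 1.61-fold in ref6-1 (0.69 ± 0.17, edgeR adjusted p = 0.0245). In brm-1 it stood at 0.20 ± 0.17 (edgeR adjusted p = 0.488).

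PI was higher in the combined mutant than in brm-1 by 1.28 ± 0.16 (edgeR adjusted p = 0.000913) and than in ref6-1 by 0.79 ± 0.15 (edgeR adjusted p = 0.00498). Both calls were kept in the 13 alternatives. The ref6-1 call was lost without WT replicate 1 (0.0586), 2 (0.0501) or 3 (0.0784) or ref6-1 replicate 1 (0.0886), and ranged from 0.0237 to 0.0886 over the alternatives. The interaction of PI, 0.59 ± 0.23, had an edgeR adjusted p = 0.391. Without combined mutant replicate 3 the difference was 1.28 from brm-1, 0.78 from ref6-1 and 0.59 for the interaction.

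AP3 was counted 2, 4 and 3 times in WT, 10, 10 and 8 in brm-1, 10, 13 and 4 in ref6-1, and 7, 9 and 9 in the combined mutant. All libraries of brm-1 and of the combined mutant were above WT in CPM, and ref6-1 overlapped it. AP3 did not pass the filter with all libraries. With no filter its log2 changes against WT were 1.62 ± 0.55, 1.58 ± 0.55 and 1.54 ± 0.56 in brm-1, ref6-1 and the combined mutant, and none passed (edgeR adjusted p = 0.0606, 0.107 and 0.0546). It passed the filter in 5 of the fits that left out a library, and without ref6-1 replicate 3 it was called in ref6-1 against WT (1.93 ± 0.49, edgeR adjusted p = 0.0337). In the other 4 of those fits AP3 was not called in any comparison that uses the group with the library left out.

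AP1 and CAL, near duplicates that specify the floral meristem, had low counts. They lie at chr1:25982294-25986349 (minus strand, 8 exons) and chr1:9099994-9103644 (minus strand, 8 exons). AP1 was counted 8, 4 and 17 times in WT, 19, 10 and 23 in brm-1, 13, 47 and 31 in ref6-1, and 24, 36 and 48 in the combined mutant. The combined mutant lay above WT, while both single mutants overlapped it. AP1 rose by 1.99 ± 0.55 with both alleles present (edgeR adjusted p = 0.0164). That call was lost without WT replicate 1 (0.0603) or 2 (0.059) or combined mutant replicate 3 (0.0546, log2 change 1.75), with 0.00567 to 0.0603 over the alternatives. In the single mutants AP1 stood at 0.87 ± 0.60 in brm-1 and 1.67 ± 0.56 in ref6-1 (edgeR adjusted p = 0.368 and 0.0903), the latter passing without ref6-1 replicate 1 (0.041, with 0.041 to 0.302 over the alternatives).

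CAL was counted 9, 8 and 11 times in WT, 2, 3 and 0 times in brm-1, 13, 18 and 17 times in ref6-1, and 4, 9 and 20 times in the combined mutant. The brm-1 libraries lay below all others and ref6-1 above WT, while the combined mutant was spread from 0.385 to 1.86 CPM. CAL fell in brm-1 by 2.38 ± 0.76 (edgeR adjusted p = 0.0456), a call lost without any one of the 6 libraries compared (0.0643 to 0.122). It was lower in brm-1 than in ref6-1, at -3.18 ± 0.70 (edgeR adjusted p = 0.00797), in each of the 12 alternatives where it was tested. Against WT, CAL stood at 0.80 ± 0.51 in ref6-1 and 0.33 ± 0.54 in the combined mutant, the latter -0.38 without combined mutant replicate 3 (edgeR adjusted p = 0.383, 0.679 and 0.656). AP1 and CAL share an identical stretch of 56 bases, the longest of any pair of members.

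**Figure D2:**
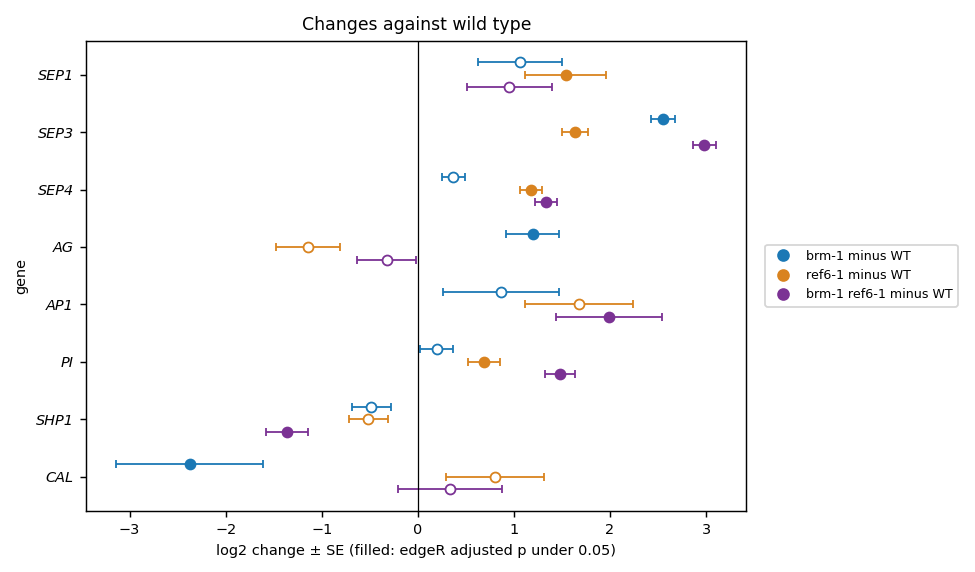
Log2 change against WT with its SE (horizontal axis) for the 8 tested genes (vertical axis) in brm-1, ref6-1 and the combined mutant, filled where the edgeR adjusted p was under 0.05. SEP3 is to the right in all 3 mutants, whereas AG lies at 1.20 in brm-1 and -1.15 in ref6-1, and CAL at -2.38 in brm-1.

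Across the comparisons between mutants, SEP3, SEP4 and PI were higher and AG and SHP1 lower in the combined mutant than in brm-1 (5 of 8, against 4.38% of all genes, 1.12% upward and 3.27% downward). Without combined mutant replicate 2, 2 of 8 passed there, and the number of all genes called fell from 968 to 364. Against ref6-1, SEP3 and PI were higher and SHP1 lower in the combined mutant (3 of 8, against 11.9% of all genes, 5.39% upward and 6.56% downward). Between the single mutants, SEP3 and AG were higher and SEP4 and CAL lower in brm-1 (4 of 8, against 16.1% of all genes, 8.61% upward and 7.47% downward). Without replicate 3 of brm-1 ref6-1, the number called was 4 against WT, 5 against brm-1 and 3 against ref6-1.

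**Figure D3:**
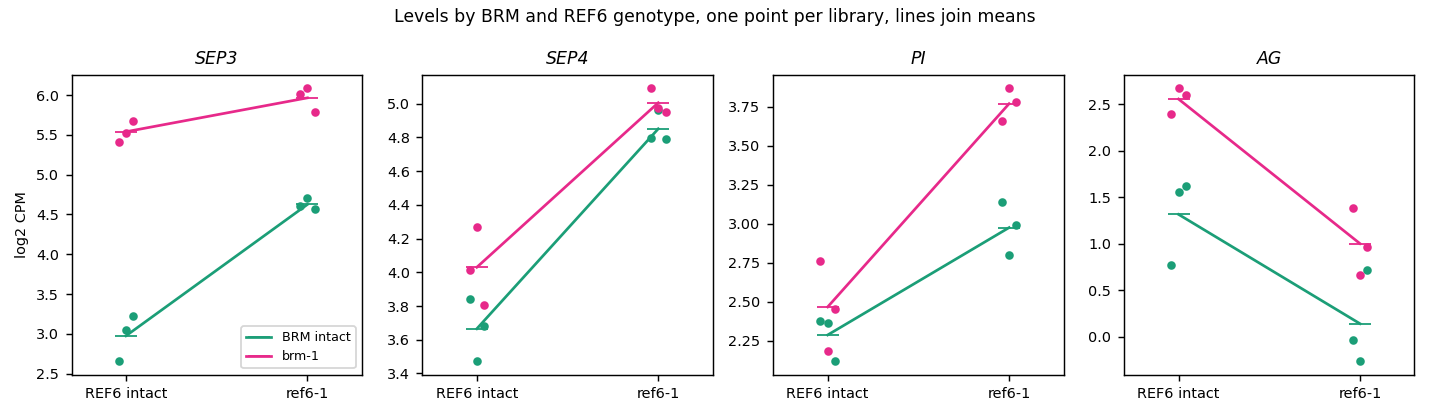
Log2 CPM (vertical axis) of SEP3, SEP4, PI and AG without and with ref6-1 (horizontal axis), separately for plants with BRM intact and for brm-1, with 1 point per library and lines between the means of log2 CPM. The lines of SEP3 draw together with ref6-1 (interaction -1.21), those of PI and AG have interactions of 0.59 and -0.37 that did not pass, and SEP4 rises with ref6-1 on both lines.

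Genes upstream of the floral organ genes were read from a list of 16 inducers and repressors of flowering, 14 of them tested. In brm-1 6 rose and 2 fell, in ref6-1 5 rose, and in the combined mutant 7 rose and 2 fell. Over all genes tested, 19.0%, 7.95% and 31.2% were called in either direction in these comparisons. The list's median log2 changes were 0.34, 0.39 and 0.31. FLC, a MADS-box repressor of flowering, rose by 3.08 ± 0.14, 2.83 ± 0.14 and 3.83 ± 0.13 in that order (edgeR adjusted p = 1.52e-07, 8.06e-07 and 1.6e-08). FT, the mobile inducer of flowering, rose by 1.29 ± 0.16, 1.29 ± 0.16 and 1.77 ± 0.15 (edgeR adjusted p = 0.000147, 0.000346 and 1.1e-05). SPL4, a target of the age pathway that activates floral meristem genes, rose by 1.07 ± 0.16, 1.06 ± 0.16 and 1.42 ± 0.16 (edgeR adjusted p = 0.000638, 0.00181 and 5.47e-05). The counts were again 7 and 2 without combined mutant replicate 3, and FLC, FT and SPL4 then stood at 3.85, 1.73 and 1.39 against WT.

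LFY, the direct activator of AP1 and AG, was counted 0, 8 and 9 times in WT, 15, 10 and 6 in brm-1, 10, 7 and 16 in ref6-1, and 17, 10 and 11 in the combined mutant. Both single mutants overlapped WT, the counts of the combined mutant were above those of WT, and LFY was not called in any comparison. AGL24, a promoter of flowering, fell by 1.74 ± 0.17 in brm-1 and by 1.31 ± 0.17 with both alleles present (edgeR adjusted p = 6.13e-05 and 0.000172). In ref6-1 AGL24 stood at 35.6 CPM against 34.2 in WT and was not called. SPL3, another target of the age pathway, rose in all 3 mutants, by 0.92 ± 0.10 in brm-1, 0.44 ± 0.10 in ref6-1 and 0.82 ± 0.10 with both alleles (edgeR adjusted p = 6.51e-05, 0.0181 and 9.48e-05). Its ref6-1 call was lost with DESeq2, with only the groups compared, and without WT replicate 1 or ref6-1 replicate 1 (0.0168 to 0.0786 over the alternatives). SOC1, a flowering integrator, also rose in all 3, by 0.25 ± 0.06, 0.38 ± 0.06 and 0.41 ± 0.06 (edgeR adjusted p = 0.0147, 0.00333 and 0.000481), with the brm-1 call lost on leaving out the first WT library or either of the last 2 brm-1 libraries (0.00847 to 0.0612). Without combined mutant replicate 3, AGL24, SPL3 and SOC1 stood at -1.54, 0.84 and 0.42 against WT. The interaction passed for 1 gene of this list, FLC, at -2.07 ± 0.18 (edgeR adjusted p = 0.00043, and -2.06 without combined mutant replicate 3).

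Of 6 other floral and fruit MADS-box genes, 3 were tested, and 2 rose in brm-1, 1 in ref6-1 and 3 with both alleles. Of all genes, 8.88%, 2.33% and 14.0% were called upward in these comparisons, and 19.0%, 7.95% and 31.2% in either direction. AGL6, a relative of the SEPALLATA genes, was counted 2, 4 and 2 times in WT and 19, 28 and 26 times in the combined mutant, and rose by 3.24 ± 0.52 (edgeR adjusted p = 0.000666). It also passed in brm-1 (2.21 ± 0.57) and ref6-1 (2.07 ± 0.58), but the brm-1 call was lost when WT replicate 1 or 3, or else brm-1 replicate 1 or 2, was left out (edgeR adjusted p = 0.0171, 0.0109 to 0.067 over the alternatives). The ref6-1 call was lost in 9 of 12 alternatives, which were DESeq2, limma-voom, no filter, the replicate block (0.0551) and leaving out any WT library or ref6-1 replicate 2 or 3 (edgeR adjusted p = 0.0482, 0.0337 to 0.155 over the alternatives). FUL, a relative of AP1, rose in brm-1 by 0.98 ± 0.21 and in the combined mutant by 0.92 ± 0.21 (edgeR adjusted p = 0.00586 and 0.00578), and stood at 0.09 ± 0.22 in ref6-1. AGL6 and FUL stood at 3.21 and 0.77 in the combined mutant without its replicate 3, both called.

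Among 10 factors that act downstream of floral MADS-box proteins, 5 were tested. In brm-1 3 rose, in ref6-1 2 rose, and 3 rose and 1 fell when both alleles were present. Of all genes, 19.0%, 7.95% and 31.2% were called in either direction, and 8.88%, 2.33% and 14.0% upward. The ref6-1 calls, of HEC1 and of the fruit factor ALC, were kept in 6 and 3 of 13 alternatives (edgeR adjusted p = 0.0435 and 0.045). HEC1, a gynoecium factor, rose by 1.28 ± 0.18 and JAG, a promoter of organ growth, by 1.75 ± 0.47 with both alleles present (edgeR adjusted p = 0.000271 and 0.0134), while NAP, a target of AP3 and PI, fell by 0.73 ± 0.16 (edgeR adjusted p = 0.0062). These stood at 1.33, 1.69 and -0.94 without combined mutant replicate 3. Without brm-1 replicate 2, 1 of the 5 rose in brm-1. SUP was among 3 factors at 0 in all WT libraries.

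**Figure D4:**
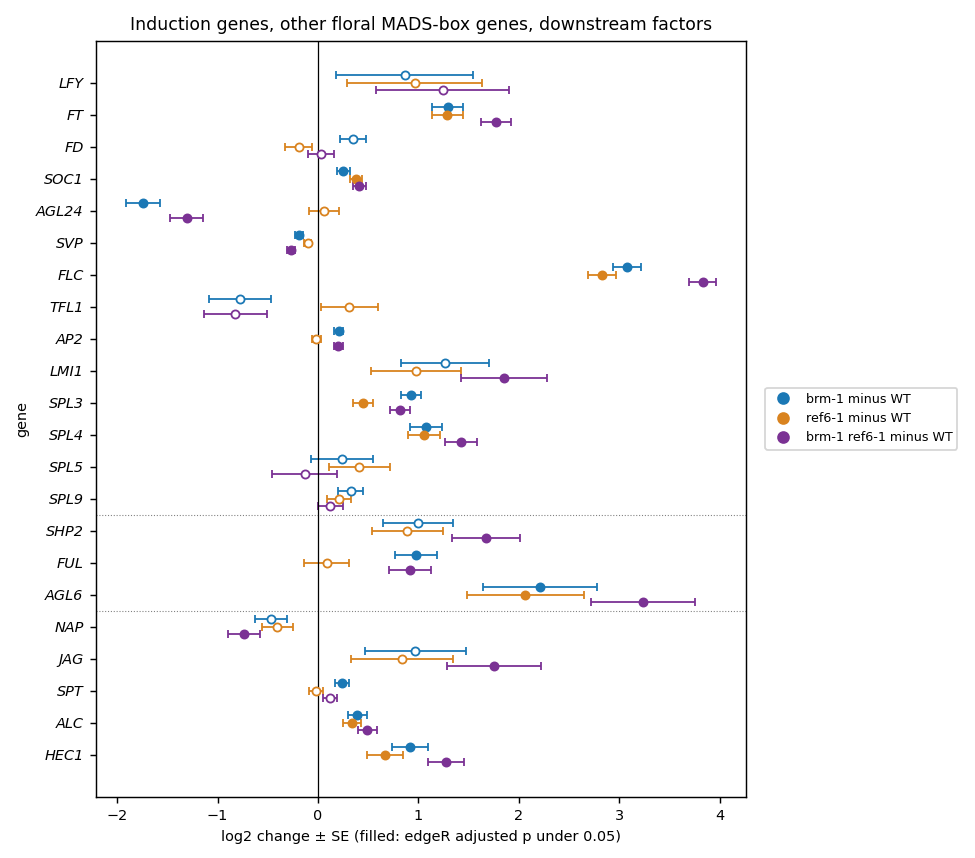
Log2 change against WT with its SE (horizontal axis) of the tested inducers and repressors of flowering, other floral MADS-box genes and downstream factors (vertical axis, divided by dotted lines) in the 3 mutants, filled where the edgeR adjusted p was under 0.05. FLC lies farthest right, at 2.83 to 3.83, AGL6 reaches 3.24 in the combined mutant, and AGL24 lies left at -1.74 and -1.31 in the genotypes with brm-1.

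Of 11 regulators that hold floral organ genes silent, all tested, 1 fell in brm-1, 1 rose in ref6-1, and 2 rose and 1 fell in the combined mutant, each by less than 0.5 on the log2 scale. Over all genes, 19.0%, 7.95% and 31.2% were called in these comparisons, so the ref6-1 and combined mutant counts are near the background and the brm-1 count is below it. The homeodomain gene BLR, a repressor of AG in the inflorescence, stood lower in brm-1 at -0.37 ± 0.05 (edgeR adjusted p = 0.000498) and in the combined mutant at -0.29 ± 0.05 (edgeR adjusted p = 0.00147). In ref6-1 BLR stood at 0.18 ± 0.05 (edgeR adjusted p = 0.049, with 0.00953 to 0.173 over the alternatives), a call lost with DESeq2, with only the groups compared, and when WT replicate 1 or 3, or else ref6-1 replicate 2 or 3, was left out. It was lower in brm-1 than in ref6-1 by the direct test, at -0.55 ± 0.05 (edgeR adjusted p = 2.83e-05). EMF1 of the Polycomb machinery rose by 0.15 ± 0.04 with both alleles present (edgeR adjusted p = 0.0116). Without combined mutant replicate 3, BLR and EMF1 stood at -0.28 and 0.16 there. The activators SYD, ATX1 and ULT1 were not called in any comparison.

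Some marker lists of other tissues also differed between genotypes, while none of the 5 root markers was called in any comparison. Of 5 green leaf markers, 4 rose in brm-1 (2 without brm-1 replicate 2), against 8.88% of all genes called upward (19.0% in either direction). With both alleles 2 rose, against 14.0% upward (31.2% in either direction). Both of these calls were lost without WT replicate 1 or without combined mutant replicate 1. RBCS1A of this list did not rise, at 115 CPM in WT, 111 in brm-1 and 110 with both alleles. The 5 shoot apical meristem markers summed to 100 to 102 CPM in WT, 129 to 141 in brm-1, 112 to 121 in ref6-1, and 157 to 162 with both alleles, and CLV3 and WUS at 5 counts or fewer in each library. The meristem and organ primordium gene ANT rose in all 3 mutants, by 0.56 ± 0.07, 0.33 ± 0.07 and 0.76 ± 0.07 (edgeR adjusted p = 0.000173, 0.0128 and 1.28e-05), and its ref6-1 call was lost without WT replicate 1 (0.0621, with 0.00517 to 0.0621 over the alternatives). KNAT1, a meristem homeobox gene, rose by 0.27 ± 0.04 in brm-1 and 0.63 ± 0.04 with both alleles, and stood at 0.14 ± 0.04 in ref6-1 (edgeR adjusted p = 0.000859, 1.78e-06 and 0.0922). ANT and KNAT1 stood at 0.80 and 0.66 without combined mutant replicate 3. STM, the other tested marker of this list, was called in no comparison. Its mean CPM was 19.8 for brm-1 and 19.0 with both alleles, against 15.2 for WT and 14.7 for ref6-1. Of the 3 tested, 2 thus rose in brm-1, 1 in ref6-1 and 2 with both alleles. The shares of all genes called upward there were 8.88%, 2.33% and 14.0% (19.0%, 7.95% and 31.2% in either direction). The 6 maturing seed markers summed to 0.17 to 1.01 CPM in WT, 5.28 to 44 in brm-1, 0.888 to 2.13 in ref6-1, and 43.5 to 116 with both alleles. Of these, 3 rose in brm-1 (2 without brm-1 replicate 2) and 6 with both alleles, against the same 8.88% and 14.0% of all genes. In brm-1, the OLEO2 call was also lost without any one WT library or brm-1 replicate 1, and the CRA1 call with limma-voom. With both alleles, the PER1 call was lost without WT replicate 1 or 2. The calls of the seed gene CRC (AT4G28520) with limma-voom and of SESA1 with only the groups compared were lost too. The part of these lists in the changes of SEP3, AG and the other members was not tested.

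The genes most like SEP3 over the 12 libraries were sought among 20802 genes with a mean of at least 2 CPM, by the Pearson correlation of log2 CPM. They were the phosphatase gene PP2C52 (r = 0.987), the fatty acid desaturase gene ADS1 (0.982), AT4G31650 (0.976), AT1G52190 (0.974) and the homeobox gene HB33 (0.97). The 12 points share 4 genotype means, so these values describe a common order of genotypes. ADS1, for example, had 20.1, 38.8, 31.2 and 42 CPM in WT, brm-1, ref6-1 and the combined mutant.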

How the data were processed

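The authors deposited counts of reads per locus, whole numbers with no normalization, made with TopHat2 and TAIR10, per the submitters' processing notes, in which versions are not given. Reads were paired, of 100 bases, per the labels' protocols. How reads were counted, whether by strand, and whether duplicates were removed is not stated in the labels. Columns were matched to samples by the labels. The members, gene lists and tests were chosen with earlier results of these data known.

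Counts of the 12 libraries were fitted together in edgeR 4.0.16 (R 4.3.3), with 1 mean per genotype, TMM normalization, the filterByExpr filter (minimum count 10) and two-sided robust quasi-likelihood tests, adjusted after Benjamini-Hochberg over 22076 genes. A gene was called at an adjusted p under 0.05. Each SE follows from the test statistic. CPM was computed from the deposited counts and TMM-scaled library totals. Fits were tested on simulated data. The fit was repeated with limma-voom (limma 3.58.1), DESeq2 1.42.0, DESeq2 size factors, without a filter, with a filter of 1 CPM in 6 libraries, on the compared groups alone, with a replicate block, and leaving out single libraries. All members, the list genes that passed and the genes most like SEP3 may be named, with at most 4 examples per list and comparison in order of adjusted p. SPL4 and SOC1 in brm-1, SPL3 in ref6-1, AGL24 and SOC1 in the combined mutant, LFY, SUP, marker genes at 0 and list genes with no call were named outside this rule, after their values were seen. Positions, exon lengths and sequences come from the RefSeq annotation of TAIR10.1. Low counts limit the precision for most members.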

Additional observations from a re-analysis of the deposited data

Results flagged for a closer look

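SEP3 was picked out because the log2 change with ref6-1 differed between plants with BRM intact and brm-1. The ref6-1 change was 1.64 ± 0.13 with BRM intact and 0.43 ± 0.10 in brm-1, with ref6-1 higher than its control in both backgrounds. The interaction was -1.21 (edgeR adjusted p = 0.0148). It was not called with limma-voom (adjusted p = 0.056) or without ref6-1 replicate 2 (edgeR adjusted p = 0.0595). In mean CPM, SEP3 went from 7.96 to 24.7 with BRM intact and from 46.7 to 62.7 in brm-1. The interaction therefore concerns fold changes, and a difference between these steps in CPM was not tested.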

How the results depend on the processing

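All 3 SEP3, both SEP4 (ref6-1 and brm-1 ref6-1), the AG brm-1, the PI brm-1 ref6-1 and the SHP1 brm-1 ref6-1 calls against WT were kept in the 13 alternatives run for each. Signs changed, with libraries left out, for values near 0: SHP1 in brm-1 minus ref6-1 (-0.083 to 0.16), SEP1 in the combined mutant minus brm-1 (-0.48 to 0.046), AP1 in the combined mutant minus ref6-1 (-0.059 to 0.79) and CAL in the combined mutant minus WT (-0.38 to 0.72). The cause was not tested. With libraries left out, members called ran from 2 to 5 in ref6-1 against WT (the 5 include AP3, which passed the filter without ref6-1 replicate 3), 2 to 5 in the combined mutant against brm-1, and 0 to 1 for the interaction, which was 0 with limma-voom. They ran from 2 to 3 in brm-1 against WT and in the combined mutant against ref6-1. All genes called ran from 2705 to 3846 in brm-1 against WT (4193 with all libraries), 862 to 1763 in ref6-1 against WT (1756), 364 to 902 in the combined mutant against brm-1 (968), 1695 to 2494 against ref6-1 (2638), and 12 to 55 for the interaction (54), which was 95 with DESeq2. Deviations of same-numbered libraries of different genotypes had correlations from -0.19 to 0.29 over 18 pairs, against -0.31 to 0.26 over 36 others. These ranges overlap, so they show no pairing by number and cannot exclude one. The replicate block raised the number of all genes called against WT to 4437 in brm-1 (from 4193), 2023 in ref6-1 (from 1756) and 7196 in the combined mutant (from 6897). With the replicate block, members called were 3, 3 and 5 in brm-1, ref6-1 and the combined mutant against WT, 4 and 3 in the combined mutant against brm-1 and ref6-1, 4 between the single mutants and 1 for the interaction. At this depth, changes of SEP2, AP3, CAL and AP1 rest on 0 to 48 counts per library.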
